A study of Homo sapiens with 16 samples.

Results

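The data described here are the last step of a time course in K562, an established human leukaemia cell line of erythroid and myeloid character: the change from 48 h to 72 h of treatment with phorbol 12-myristate 13-acetate (PMA). The members are the 4 RNA sequencing libraries labelled with those times, 2 at 48 h and 2 at 72 h, of 16 libraries in the whole series. In both groups the cells were wild type by label, were grown in RPMI with 10% serum and received 25 nM PMA to drive them toward a megakaryocyte-like state. They differ in the length of treatment, and the medium was changed after 24 h and again after 48 h, so the 72 h cells had 1 medium change more than the 48 h cells. Time and that medium change cannot be told apart in this design. The 24 h libraries, which had no medium change yet, and the untreated 0 h libraries serve for comparison, and all 8 time points enter the statistical fit. The labels do not say whether replicates 1 and 2 came from separate cultures, so p-values measure only the spread between these libraries.

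PMA is a phorbol ester that stands in for diacylglycerol and switches on protein kinase C, which signals through the ERK kinases to AP-1 and other transcription factors. In K562 cells this is a classical way to stop proliferation, lower parts of the red cell programme and raise genes of the megakaryocyte, the bone marrow cell that sheds platelets. Platelet integrins such as the complex of ITGA2B with ITGB3 bind fibrinogen, and the ETS factor FLI1 is a central regulator of megakaryocyte genes.

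The 4 libraries held 32063125 to 37976689 estimated reads. An estimate of 3 reads corresponds to between 0.0836 and 0.0937 CPM (counts per 1e+06 reads), the unit of all levels below, scaled with edgeR's TMM factors and not divided by gene length. Levels are given for replicate 1 and then replicate 2. The mitochondrial chromosome took 1.55% of matched reads in 48 h replicate 1 and between 2.62% and 2.89% in the other 3 libraries. Replicates at 72 h differed with the base composition of the transcripts: across 10270 well-measured genes, the difference between the 2 replicates correlated with GC content at r = -0.60 at 72 h and at r = -0.31 at 48 h, a description across genes. The step itself correlated with GC content at r = -0.50 within replicate 1 and at r = 0.04 within replicate 2. A GC correction gave 820 calls at 72 h against 48 h, with 257 of the 258 calls of the main fit among them. Library sizes without the mitochondrial chromosome, an alternative added after seeing the data, gave 258 calls, all shared with the main fit. Beyond these alternatives, the part of base composition and of the mitochondrial share in the results below was not tested.

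Between 48 h and 72 h few genes were called in the main fit, and most of those called rose. Of 17559 genes tested, 258 (1.47%) were called at an adjusted p under 0.05 with edgeR's quasi-likelihood test. Higher at 72 h were 201 genes (1.14%), with a median log2 change of 0.92, and 89 of them rose at least 2-fold. Lower at 72 h were 57 genes (0.325%), with a median log2 fall of 0.75, and 14 of them fell at least 2-fold. The median log2 change of all genes tested was 0.00. The called genes that rose had a median of 1.33 CPM at 0 h, 5.02 CPM at 24 h, 11.3 CPM at 48 h and 22.1 CPM at 72 h. The called genes that fell had medians of 34.0, 27.5, 30.6 and 17.5 CPM at the same times.

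The number of calls rests on having both replicates. Without 48 h replicate 1 it was 38, without 48 h replicate 2 it was 37, without 72 h replicate 1 it was 92, and without 72 h replicate 2 it was 176. Without 24 h replicate 1, which lends only its spread to the test, it was 160. With each of the 4 libraries left out in turn, 29 of the 258 genes were called every time, 23 of them higher and 6 lower, while 111 were called in none of these fits. With the replicate number and GC content both in the fit, 849 genes were called higher and 410 lower, 67.4% higher against 77.9% here. All 258 changed in the same direction within replicate 1 and within replicate 2, as the plot of the step by replicate number shows. This is no independent check, since the calls use these same libraries and in all 258 genes the 48 h and 72 h groups did not overlap.

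**Figure D1:**
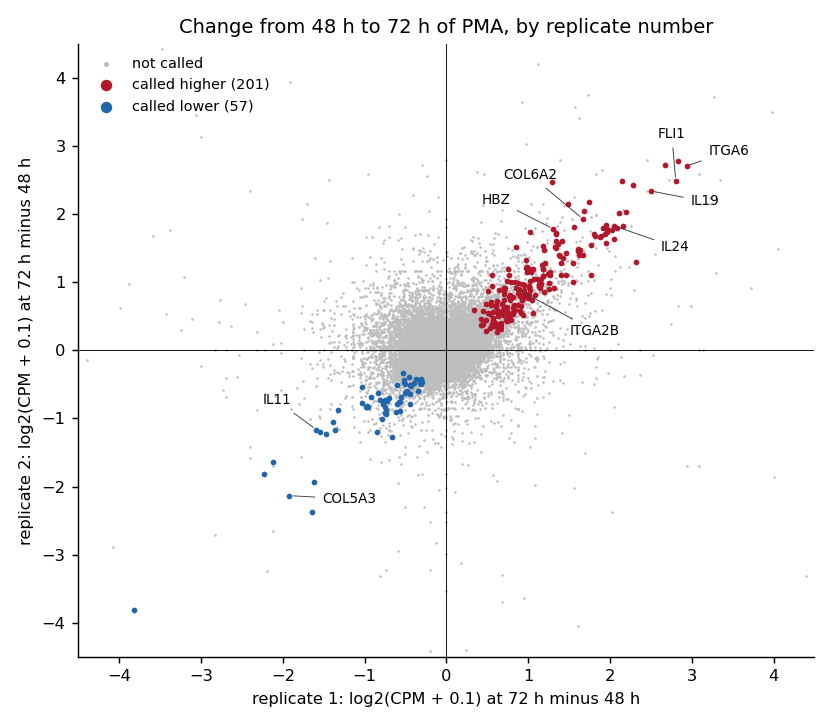
Log2(CPM + 0.1) at 72 h minus that at 48 h, within replicate 1 on the horizontal axis and within replicate 2 on the vertical axis, 1 point per gene tested. Grey points were not called, red points were called higher (201 genes) and blue points lower (57 genes); all coloured points lie where both replicates have the same sign, with ITGA6 near the top and COL5A3 among the lowest.

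Several genes of megakaryocytes and platelets rose. Of 26 genes listed, 19 passed the filter on low counts. Called higher were 5 (FLI1, MMRN1, ITGA2B, CD9 and ITGA2) and none lower, and the median log2 change was 0.44. Over all genes tested, 1.14% were called higher and 0.325% lower. FLI1 had 0.549 and 0.725 CPM at 48 h and 4.43 and 4.53 CPM at 72 h. That is 18 and 26 reads against 159 and 145, and both earlier 24 h libraries were below 0.07 CPM. FLI1 rose 6.98-fold (log2 change 2.80, SE 0.37, adjusted p = 0.00191), and lost its call only without 48 h replicate 1 among the 4 libraries left out.

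MMRN1, which encodes the platelet and endothelial protein multimerin, stood at 1.52 and 1.28 CPM, then at 6.16 and 4.84 CPM at 72 h, a 3.92-fold rise (adjusted p = 0.0144) that was called in 1 of the 4 fits with a library left out. ITGA2B, the alpha subunit of the platelet fibrinogen receptor, rose from 33.0 and 34.1 CPM to 59.4 and 64.4 CPM. The 72 h libraries lay well above both 48 h libraries and close to the untreated mean of 57.7 CPM, while the 24 h mean was 13.1 CPM. Its rise of 0.88 on the log2 scale (SE 0.11, adjusted p = 0.00111) was called with each of the 4 libraries left out. CD9, a tetraspanin of the platelet surface, went from 25.0 and 26.9 CPM to 40.5 and 40.1 CPM (1.55-fold, adjusted p = 0.0269). ITGA2, the collagen-binding integrin subunit of platelets and the fifth call of the list, went from 112 and 111 CPM to 162 and 139.6 CPM (log2 change 0.44, adjusted p = 0.0288).

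Other members of the list were not called. THBS1, which encodes the granule protein thrombospondin-1 and had the highest level of the list, stood at 4228 and 4150 CPM at 48 h and at 4916 and 4271 CPM at 72 h (log2 change 0.13, SE 0.15, adjusted p = 0.84). ITGB3, the partner of ITGA2B, had 897 and 880 CPM, then 1176 and 1008 CPM (log2 change 0.30, adjusted p = 0.253). TUBB1, the tubulin of platelets, had 11.1 and 11.4 CPM, then 16.1 and 14.7 CPM, and was not called (log2 change 0.45, adjusted p = 0.215). VWF, the von Willebrand factor gene, had 54 to 65 reads in the 4 libraries and PPBP had 6 to 23. GP1BB had 29.5 and 37.8 CPM at 48 h, 0 CPM in 72 h replicate 1 and 58.4 CPM in 72 h replicate 2. Members near 0 were PF4, GP9, SELP, F13A1 and TREML1 with at most 3 reads in each library, and GP1BA with at most 4. With 48 h replicate 1 left out, 1 member was called higher. Leaving out the other 48 h library gave 2, as did leaving out 72 h replicate 1. With 72 h replicate 2 left out, 4 were called higher and 1 lower. The median stayed between 0.35 and 0.43. Over all genes tested the number of calls fell in each of these fits, as given above.

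FLI1 has a neighbour in the same family. ETS1, the gene next to it on chromosome 11 (GRCh38, ETS1 128458761 to 128587558 on the minus strand, FLI1 128686535 to 128813267 on the plus strand), was also called higher; it is named here after its values were seen. ETS1 had 105 and 116 CPM at 48 h and 164 and 145 CPM at 72 h (log2 change 0.48, SE 0.09, adjusted p = 0.0234). The ends of the genes are 98976 bp apart. Within FLI1, a transcript of 3130 nt had an estimated 0 reads in both 48 h libraries and 102 and 95 reads at 72 h, and a transcript of 3825 nt had 0 and 23 reads at 48 h and 22 and 26 at 72 h. Such reads are shared out between overlapping transcripts by the authors' program, so the split between them is less certain than their sum.

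**Figure D2:**
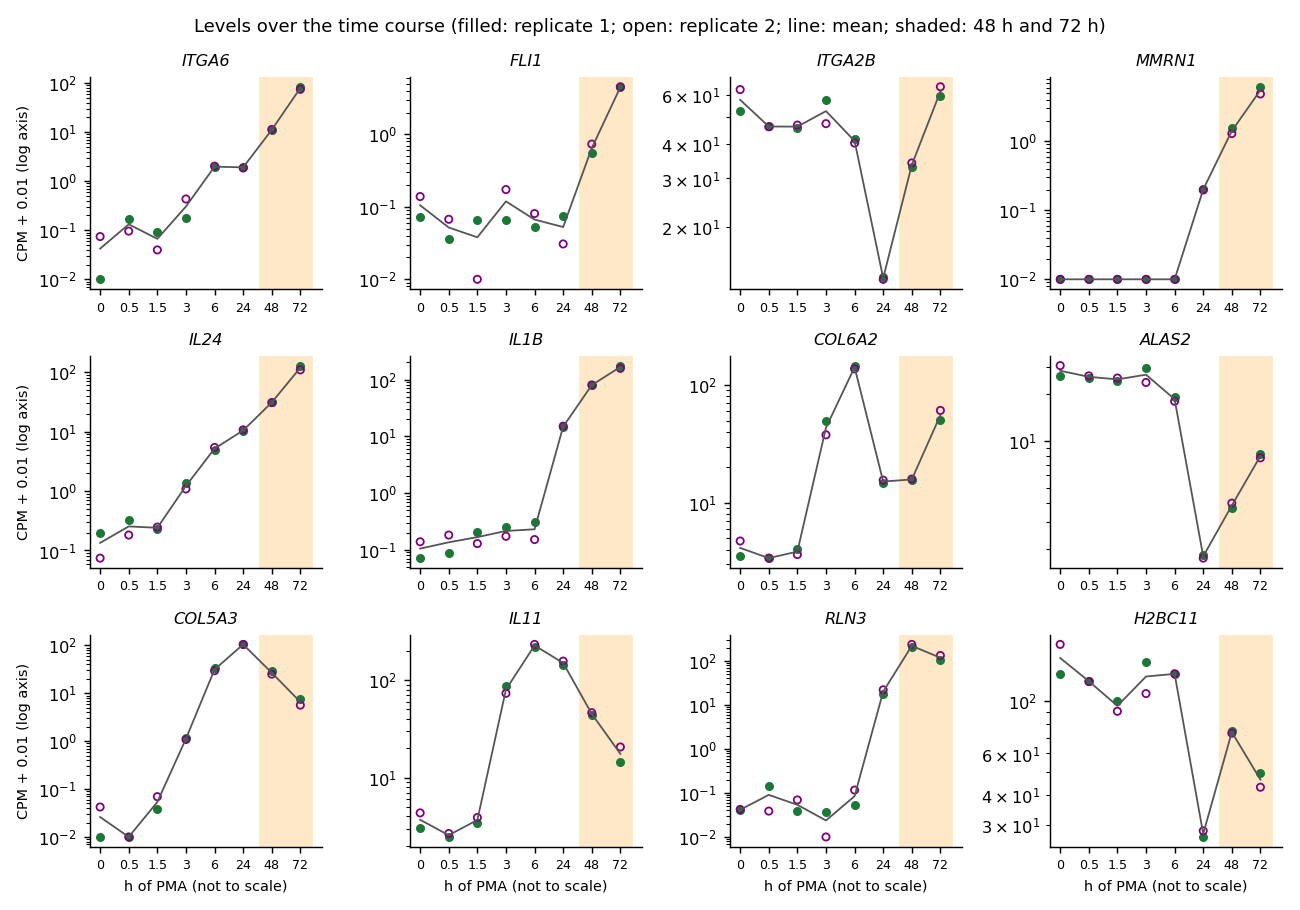
CPM + 0.01 on a log axis over the 8 times of PMA treatment (axis not to scale) for 12 genes; filled points are replicate 1, open points replicate 2, the line joins the means, and 48 h and 72 h are shaded. ITGA6, FLI1, MMRN1, IL24 and IL1B are highest at 72 h, COL5A3 and IL11 fall on from earlier peaks, and H2BC11 falls from 48 h to 72 h after a rise from 24 h.

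The largest rise among genes with at least 2 CPM belonged to ITGA6, the laminin-binding integrin alpha 6 subunit, which platelets and many epithelia carry. It stood at 10.9 and 11.4 CPM at 48 h and at 84.2 and 74.7 CPM at 72 h, after 1.97 and 1.85 CPM at 24 h. ITGA6 rose 7.13-fold (log2 change 2.83, SE 0.20, adjusted p = 2.28e-05). Its 2 main transcripts both had more reads at 72 h: that of 5618 nt had 281 and 396 reads at 48 h and 1727 and 1389 at 72 h, and that of 5686 nt had 55 and 0 reads at 48 h and 1131 and 919 at 72 h.

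Among 36 tested genes of matrix, proteases and adhesion, 3 were called higher (ITGA6, COL6A2 and MMP2) and 2 lower (MMP10 and PLAU). Their median log2 change was 0.06. Of all genes tested, 1.14% were called higher and 0.325% lower. COL6A2, a chain of the microfibrillar collagen VI, had 15.7 and 15.9 CPM at 48 h and 50.1 and 60.9 CPM at 72 h. Both 72 h libraries were above 3 times the 48 h level, and the rise of 1.81 on the log2 scale (SE 0.14, adjusted p = 4.82e-05) was called with each of the 4 libraries left out. COL6A2 had passed through 146 and 137 CPM at 6 h and 14.7 and 15.6 CPM at 24 h. COL6A1, its neighbour and partner chain, had 5.49 and 5.74 CPM, then 8.75 and 10.7 CPM, a log2 change of 0.79 that missed the threshold (adjusted p = 0.0954) in a gene named after its values were seen. MMP2, a gelatinase, rose from 1.28 and 1.09 CPM to 3.04 and 3.34 CPM (adjusted p = 0.0336).

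PLAU and MMP10 were lower at 72 h. PLAU, which encodes urokinase, the activator of plasminogen, fell from 57.4 and 52.8 CPM to 33.3 and 26.1 CPM (log2 change -0.89, SE 0.14, adjusted p = 0.00773). MMP10, stromelysin-2, fell from 2.53 and 1.95 CPM to 0.752 and 0.437 CPM (log2 change -1.89, adjusted p = 0.0106), after a mean of 21.4 CPM at 24 h. TIMP1, the protease inhibitor with the highest level of the list, had means of 11023 CPM at 48 h and 9477 CPM at 72 h, a change not called (log2 change -0.22, SE 0.20). Calls of MMP2, PLAU and MMP10 were lost in at least 3 of the 4 fits with a library left out.

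The steepest fall among genes with at least 2 CPM was in another collagen. COL5A3, a fibrillar collagen V chain, had 105 CPM in both 24 h libraries, 28.6 and 25.2 CPM at 48 h and 7.5 and 5.65 CPM at 72 h. Its fall of 2.03 on the log2 scale (SE 0.15, adjusted p = 4.82e-05) was called with each of the 4 libraries left out, and its log2 change from 24 h to 48 h was -1.96.

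A run of immune genes on chromosome 1 was higher at 72 h. Between 206767602 and 206946466 (GRCh38, 178865 bp) lie IL10, IL19, IL20, IL24, FCMR and PIGR, and 5 of these 6 genes were called higher; the window and the genes in it other than IL24 and IL19 were chosen after the values were seen. IL24, a cytokine of the IL-10 family that signals through the IL-20 receptors, had 31.3 and 30.8 CPM at 48 h and 129.7 and 109.8 CPM at 72 h. It rose 3.85-fold (log2 change 1.95, SE 0.14, adjusted p = 2.28e-05), after means of 0.124 CPM at 0 h and 10.5 CPM at 24 h.

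IL19, a second cytokine of that family, had no read at 24 h, 2.86 and 2.45 CPM at 48 h and 16.7 and 12.8 CPM at 72 h (5.55-fold, log2 change 2.47, SE 0.31, adjusted p = 0.00615). IL10 itself, an inhibitory cytokine, went from 2.77 and 2.55 CPM to 5.52 and 6.49 CPM (log2 change 1.18, adjusted p = 0.0241). FCMR, a receptor for IgM, went from 2.65 and 3.49 CPM to 5.91 and 6.97 CPM (adjusted p = 0.0467). PIGR, which carries IgA and IgM across epithelia, went from 11.5 and 11.2 CPM to 19.5 and 24.0 CPM (log2 change 0.94, adjusted p = 0.0223).

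IL20 lies between them with few reads. It had 21 and 24 reads at 48 h, then 44 and 28 reads, and was not called (log2 change 0.68, SE 0.46, adjusted p = 0.657). The genes on either side did not pass the test: MAPKAPK2 changed by 0.00 (SE 0.12) and C1orf116 by 0.05 (SE 0.14) on the log2 scale. Only 246 bp separate the end of IL24 from FCMR on the other strand, and the sources used here do not say whether reads were counted by strand. Of these calls, that of IL24 held with each of the 4 libraries left out, those of IL19 and PIGR in 1 of the 4 fits and those of IL10 and FCMR in none.

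**Figure D3:**
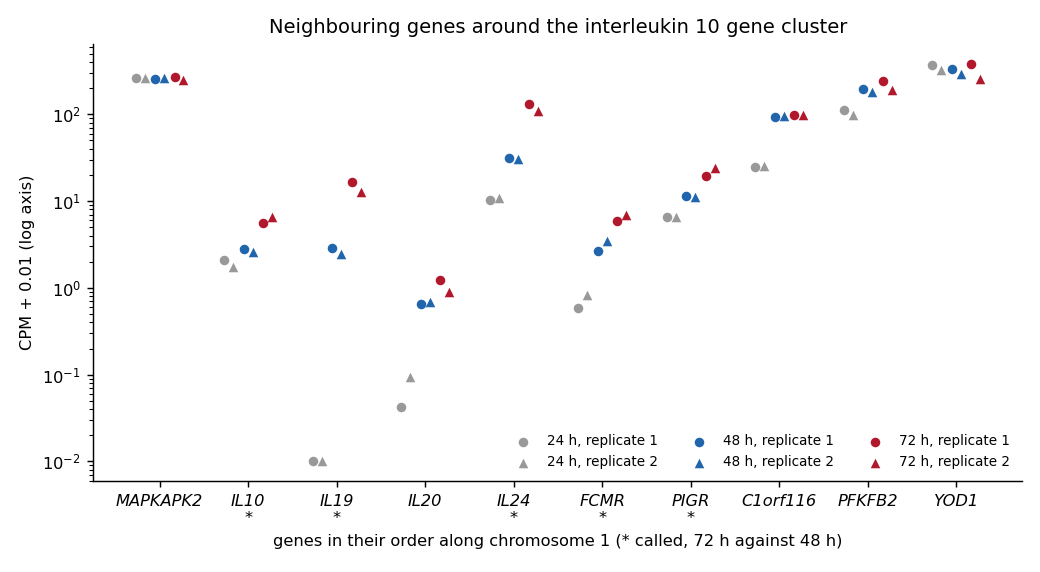
CPM + 0.01 on a log axis for 10 genes in their order along chromosome 1, at 24 h (grey), 48 h (blue) and 72 h (red), with circles for replicate 1 and triangles for replicate 2. The 5 genes marked with an asterisk (IL10, IL19, IL24, FCMR and PIGR) have both 72 h libraries above both 48 h libraries, while MAPKAPK2 and C1orf116 sit at the same height at 48 h and 72 h.

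Inflammatory genes were divided. Of 26 tested genes of NF-kB signalling and cytokines, 2 were called higher and none lower, and 19 had a change below 0. All genes tested gave 1.14% called higher and 0.325% called lower. IL1B, the cytokine interleukin-1 beta, had 79.2 and 80.3 CPM at 48 h and 176 and 158 CPM at 72 h, a 2.09-fold rise (log2 change 1.07, SE 0.12 on that scale, adjusted p = 0.00083) that was called with each of the 4 libraries left out. CSF1, the growth factor of macrophages, went from 59.7 and 64.9 CPM to 85.2 and 95.0 CPM (log2 change 0.53, adjusted p = 0.0352) and was called in none of those 4 fits. CCL2, the chemokine with the highest level of the list, had 669 and 731 CPM, then 604 and 567 CPM (log2 change -0.26, adjusted p = 0.445). CCL3 had the list's largest change, -1.35, with an SE of 0.72 and overlapping groups.

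IL11, a cytokine that supports megakaryocyte growth, moved the other way. It had 43.7 and 46.3 CPM at 48 h and 14.5 and 20.6 CPM at 72 h, far under its 24 h levels of 143 and 157 CPM. The fall of 1.36 on the log2 scale (SE 0.16, adjusted p = 0.00104) was called with each of the 4 libraries left out. The TPA response element is the site that gave AP-1 one of its names. It was searched with the pattern TGANTCA, in which N is any base, so the counts below are of that pattern. Both strands of the RefSeq promoter windows were read (GRCh38.p14, 250 bases before to 50 after the start). A match is shown in capitals for IL11, at chr19:55370414-55370713 on the minus strand, because IL11 is a called gene whose window holds it.
IL11: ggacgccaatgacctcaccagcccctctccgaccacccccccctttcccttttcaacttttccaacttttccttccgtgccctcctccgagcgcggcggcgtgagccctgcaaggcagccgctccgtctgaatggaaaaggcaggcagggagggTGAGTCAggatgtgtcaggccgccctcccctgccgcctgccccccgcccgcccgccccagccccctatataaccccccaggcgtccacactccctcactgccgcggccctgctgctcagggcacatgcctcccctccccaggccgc
Those letters occur in 17 of 147 windows of genes called higher (11.6%), in 4 of 40 windows of genes called lower (10.0%) and in 612 of 12159 windows of all genes tested (5.03%). The window of IL19 holds 1 match, but its RefSeq start lies 28097 bp from the start of the gene in GENCODE 29. The windows of IL24, IL10, FCMR, PIGR, ITGA6, ITGA2B, MMRN1 and COL5A3 do not hold them. A match in a window is a matter of letters and does not say that a factor binds there.

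Red cell genes did not move in 1 direction as a group. All 25 genes listed were tested, 2 were called higher (HBZ and ALAS2) and 1 lower (HEMGN), and the median log2 change was -0.06. Of all genes tested, 1.14% were called higher and 0.325% lower. An unadjusted p under 0.05 was found for 8 of the 25, 4 higher and 4 lower, against 11.9% of all genes tested. With the GC correction 4 were called higher and 3 lower, and with the replicate block as well 4 and 4. Over all 17559 genes tested, these settings gave 587 and 233, then 849 and 410. ALAS2, the first enzyme of haem synthesis in red cells, had 3.69 and 3.96 CPM at 48 h and 8.22 and 7.78 CPM at 72 h. It rose 2.09-fold (log2 change 1.06, SE 0.14 on that scale, adjusted p = 0.00148) and was called with each of the 4 libraries left out, yet stayed under the untreated mean of 28.4 CPM. Its exons overlap those of APEX2 on the other strand, which had a mean of 29 CPM. HBZ, the embryonic zeta globin, had 2.86 and 3.93 CPM, then 7.25 and 13.8 CPM (log2 change 1.62, SE 0.33, adjusted p = 0.0316), against 47.5 CPM in untreated cells, and was called in 1 of the 4 fits with a library left out. With 1 of the 4 libraries left out the number of calls in the list fell or rose, and its median lay between -0.11 and -0.04.

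HEMGN, a nuclear protein of blood progenitors, ran opposite to ALAS2. It had 137 and 149.9 CPM at 48 h and 76.2 and 65.4 CPM at 72 h, a fall of 1.02 on the log2 scale (SE 0.16, adjusted p = 0.00563), and at 24 h it had stood at 2.19 on the log2 scale above untreated cells. The fetal globin HBG2, whose reads cannot be fully separated from the near-identical HBG1, had 773 and 649 CPM, then 758 and 506 CPM, and was not called (adjusted p = 0.855). GATA1, the erythroid and megakaryocyte transcription factor, changed by -0.03 (SE 0.15). AHSP and EPB42 had at most 3 reads in each of the 4 libraries.

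Histone genes were lower at 72 h. Replication-dependent histone mRNAs are made in S phase and end in a stem-loop in place of a poly(A) tail, and these libraries were depleted of ribosomal RNA and not selected for poly(A). All 25 tested genes of the list had a log2 change below 0, with a median of -0.56. In 24 of them both 72 h libraries lay below both 48 h libraries, against 19.5% of all genes tested, and against 19.2% where both lay above. Called lower were 5 of the 25: H2AC4, HIST1H3B, H2AC11, H2BC11 and H1-5, and none was higher. Among all genes tested, 0.325% were called lower. H1-5, a linker histone that is outside the naming rule, had 37.4 and 37.7 CPM at 48 h and 27.6 and 26.3 CPM at 72 h (log2 change -0.48, adjusted p = 0.0429).

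H2AC11 had 186 and 216 CPM at 48 h and 111 and 130.3 CPM at 72 h (log2 change -0.74, SE 0.15, adjusted p = 0.0288). HIST1H3B, the table's name for H3C2, had 168 and 185 CPM, then 99.9 and 103 CPM (log2 change -0.80, adjusted p = 0.0273). H2BC11 had 74.5 and 73.1 CPM, then 49.9 and 43.3 CPM (log2 change -0.66, adjusted p = 0.0438). In each of these genes both replicates fell, and H2AC4 did so from a lower level (17.9 and 17 CPM, then 10.7 and 8.87 CPM, log2 change -0.83).

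H3C14, the histone gene with the largest fall of all those called, is outside the list and had 199 and 223 CPM, then 97.4 and 129.7 CPM (log2 change -0.89, SE 0.19, adjusted p = 0.0387); an exon of H4C14 overlaps it on the other strand. H2BC8, H2BC13 and H2AC21, also outside it and named after their values were seen, were called lower with log2 changes of -0.66, -0.71 and -0.76. Histone genes of 1 class are near copies of each other, so their reads may be shared out between them. The list's highest gene, H1-2, had 326 and 295 CPM, then 267 and 213 CPM, and was not called (adjusted p = 0.332). The 5 calls are close to the threshold: 0 genes of the list were called without 48 h replicate 1, without 48 h replicate 2 or without 72 h replicate 1, and 1 was without 72 h replicate 2. The median in those 4 fits, over 26 genes tested, lay between -0.61 and -0.48. DESeq2 called 12 of the 25 lower, and 101 of all 17559 genes tested.

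**Figure D4:**
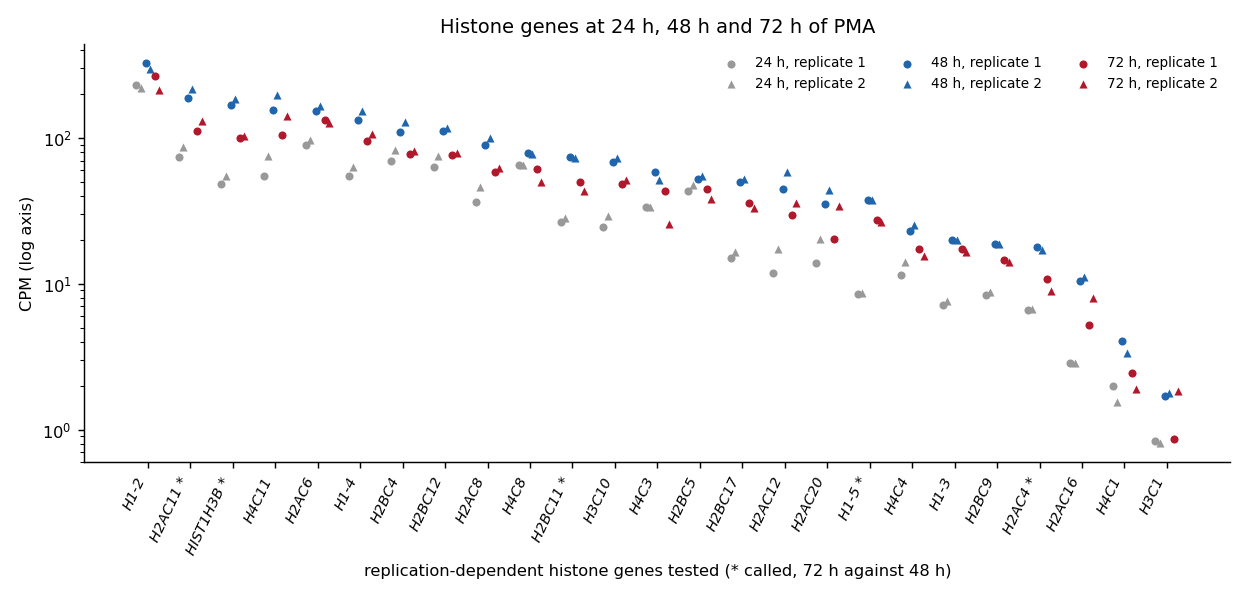
CPM on a log axis for the 25 tested genes of the histone list, ordered by their 48 h mean, at 24 h (grey), 48 h (blue) and 72 h (red); circles are replicate 1, triangles replicate 2, and asterisks mark the 5 genes called. In 24 of the 25 genes both red points lie under both blue ones, the exception being H3C1.

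The octamer ATTTGCAT, a known element of histone H2B promoters, was searched on both strands of the same RefSeq windows. It is in capitals below for 3 histone genes called lower, to show how their promoters compare: H2BC11 at chr6:27132746-27133045, H2BC8 at chr6:26216639-26216938 and H2AC4 at chr6:26033569-26033868, all on the minus strand of GRCh38.p14. In H2AC4 the letters stand on the opposite strand and read as the reverse complement.
H2BC11: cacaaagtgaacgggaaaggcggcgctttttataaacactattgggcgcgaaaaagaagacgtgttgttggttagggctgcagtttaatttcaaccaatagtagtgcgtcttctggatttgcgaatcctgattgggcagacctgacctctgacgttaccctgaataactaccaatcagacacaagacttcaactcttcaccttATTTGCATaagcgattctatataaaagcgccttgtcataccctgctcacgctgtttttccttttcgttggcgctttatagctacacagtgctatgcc
H2BC8: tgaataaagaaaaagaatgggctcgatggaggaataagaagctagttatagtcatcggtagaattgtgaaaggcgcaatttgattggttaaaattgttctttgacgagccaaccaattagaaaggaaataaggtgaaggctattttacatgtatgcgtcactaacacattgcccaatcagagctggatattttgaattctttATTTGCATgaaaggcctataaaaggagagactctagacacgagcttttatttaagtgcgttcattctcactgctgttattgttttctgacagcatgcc
H2AC4: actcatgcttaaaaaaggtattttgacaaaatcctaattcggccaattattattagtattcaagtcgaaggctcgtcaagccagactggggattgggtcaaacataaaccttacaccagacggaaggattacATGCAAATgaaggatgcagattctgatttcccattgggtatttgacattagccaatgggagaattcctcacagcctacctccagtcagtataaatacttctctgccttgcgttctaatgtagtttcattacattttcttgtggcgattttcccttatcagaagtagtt
H2BC11 and H2AC11 start back to back on chromosome 6, and the match in both windows is the same 8 bases, 27132835 to 27132842. The octamer stands in 5 of 8 windows of histone genes called lower, in 11 of 15 windows of all H2B genes tested (73.3%), in 11 of 34 windows of the other histone classes tested (32.4%) and in 190 of the 12159 windows of all genes tested (1.56%). Genes without a window in the RefSeq table are not counted.

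Genes of DNA replication leaned down by small amounts and none of 39 was called. Their median log2 change was -0.24, 37 of the 39 were below 0, 17 had an unadjusted p under 0.05 (11.9% of all genes tested did, in either direction), and DESeq2 called 1 of them lower. With the GC correction 9 were called lower, and 11 with the replicate block and that correction. Over all 17559 genes tested, these settings gave 233 and 410 lower, and DESeq2 gave 101. LIG1, the ligase that joins Okazaki fragments, had 64.4 and 69.5 CPM, then 48.3 and 52.2 CPM (log2 change -0.41, SE 0.11, adjusted p = 0.0917). RRM2, the ribonucleotide reductase subunit with the highest level of the list, had 404 and 394 CPM, then 337 and 305 CPM (log2 change -0.31, SE 0.09, adjusted p = 0.132). None of 30 mitosis genes was called by either tool, 4 had an unadjusted p under 0.05, and the median was -0.09, or 0.02 without 72 h replicate 2. CDC20, the activator of the anaphase-promoting complex, changed by -0.26 (SE 0.12), and TOP2A, which untangles sister chromatids, had 497 and 477 CPM, then 534 and 393 CPM.

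Ribosome biogenesis genes lay low in the same way. All 30 had a log2 change below 0, with a median of -0.24. In 27 of them both 72 h libraries lay below both 48 h libraries, against 19.5% of all genes tested. Called lower was 1, against 0.325% of all genes tested. DESeq2 called 4 lower, the GC correction gave 8, and the replicate block with that correction gave 17. Over all 17559 genes tested, these settings gave 101, 233 and 410 lower. The gene called was BYSL, needed to build the small ribosomal subunit, with 37.0 and 39.1 CPM at 48 h and 27.1 and 25.0 CPM at 72 h (log2 change -0.55, SE 0.11, adjusted p = 0.0288). BOP1, of the large subunit pathway, had the largest change, -0.66, and was not called (adjusted p = 0.0841), and NPM1, the most abundant, had 781 and 793 CPM, then 785 and 638 CPM. The medians within replicate 1 and within replicate 2 were -0.16 and -0.33 for this list, and -0.17 and -0.30 for the replication list.

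MYB and MYC, transcription factors tied to growth, were looked at singly. MYB, a transcription factor of blood progenitors that is named after its values were seen, had 72.5 and 81.0 CPM at 48 h and 58.0 and 58.2 CPM at 72 h (log2 change -0.40, SE 0.09, adjusted p = 0.0388), a call lost with any of the 4 libraries left out. MYC had 65.8 and 93.1 CPM, then 49.7 and 64.9 CPM; its groups met closely without overlap and it was not called (adjusted p = 0.325). Of 37 tested immediate-early and feedback genes of the ERK pathway none was called, and the median was 0.01. An unadjusted p under 0.05 was found for 7, against 11.9% of all genes tested. DESeq2 called 1 of them higher. With the GC correction 3 were called higher and 1 lower, and with the replicate block as well 4 and 3. Over all 17559 genes tested, DESeq2 gave 254 higher, and the GC settings gave 587 and 233, then 849 and 410. EGR1, the most abundant of them, held 946 and 1154 CPM, then 875 and 1148 CPM, against 146 CPM in untreated cells.

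Lysosome genes were mostly above 0. Of 31 tested, 26 had a positive change, the median was 0.16, and 2 were called higher, against 1.14% of all genes tested. DESeq2 called 4 higher, the GC correction gave 11, and the replicate block with that correction gave 13. Over all 17559 genes tested, these settings gave 254, 587 and 849 higher. CTSB, the protease cathepsin B, had 735 and 743 CPM at 48 h and 1003 and 975 CPM at 72 h (log2 change 0.42, SE 0.10, adjusted p = 0.0483). NPC1, which exports cholesterol from lysosomes, had 319 and 322 CPM, then 433 and 418 CPM (log2 change 0.41, SE 0.08, adjusted p = 0.0285). NPC2, its partner protein, changed by 0.46 (SE 0.15, adjusted p = 0.212), and CTSL, the most abundant, by 0.30 (adjusted p = 0.288). Both calls were lost with any of the 4 libraries left out.

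Sterol and lipid synthesis gave 2 calls among 32 genes, both lower, with a median of -0.16. Of all genes tested, 0.325% were called lower. Changes were below 0 in 25 of the 32. In 17 both 72 h libraries lay below both 48 h libraries, against 19.5% of all genes tested. An unadjusted p under 0.05 was found for 12, all lower, against 11.9% of all genes in either direction. DESeq2 called 3 lower and the GC correction gave 7. Over all 17559 genes tested, these settings gave 101 and 233 lower. ACAT2, an acetyl-CoA thiolase, had 57.1 and 55.1 CPM, then 44.2 and 41.0 CPM (adjusted p = 0.0411), and its exons overlap those of the more abundant TCP1 on the other strand. SQLE, squalene epoxidase and the highest of the list, changed by 0.06 (SE 0.10).

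Stress and sugar genes gave few calls. With the GC correction 6 ATF4 target genes and 5 genes of hypoxia and glycolysis were called higher, and with the replicate block as well 11 and 7. Over all 17559 genes tested, these settings gave 587 and 849 higher, against 201 in the main fit. ALDH1L2, a mitochondrial folate enzyme, was the 1 call among 29 ATF4 target genes, with 16.8 and 18.1 CPM at 48 h and 27.6 and 26 CPM at 72 h (log2 change 0.62, SE 0.11, adjusted p = 0.0107), and the list's median was 0.16, with 24 members above 0. Exons of ALDH1L2 overlap those of the more abundant NOPCHAP1 on the other strand. TXNIP, an inhibitor of glucose uptake, was the 1 call among 31 genes of hypoxia and glycolysis, with 96.0 and 95.3 CPM, then 149 and 119.5 CPM (log2 change 0.49, adjusted p = 0.0488). Its relative ARRDC4 just missed the threshold with a larger change, 0.57 (adjusted p = 0.0505), and the glycolytic enzyme ENO1 changed by -0.23 (SE 0.13). None of 23 chaperone genes was called by edgeR or by DESeq2, and 2 had an unadjusted p under 0.05. With the GC correction edgeR called 1 higher, with the replicate block and that correction 3, and without the low-count filter 1. Among the chaperones, DNAJB9 had the largest change, 0.52 (SE 0.20).

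Markers of other cell types were checked beside these results. Of 17 tested monocyte and macrophage genes 1 was called higher: ITGAX, an integrin subunit of myeloid cells, had 94.6 and 93.0 CPM at 48 h and 120 and 140.5 CPM at 72 h (log2 change 0.47, SE 0.10, adjusted p = 0.0429). The summed level of the 22 listed genes was 395 and 432 CPM, then 494 and 515 CPM, mostly from FCGR2A (213 and 249 CPM, then 274 and 277 CPM). The median log2 change was 0.23 and 12 of the 17 were above 0. Among all genes tested, 1.14% were called higher. Over the 17 tested genes log2 changes ranged from -2.26 to 1.20. VCAN, the proteoglycan versican, had the largest change among members with a mean of at least 2 CPM. It went from 2.96 and 3.51 CPM to 6.86 and 6.87 CPM and was not called (log2 change 1.08, SE 0.26, adjusted p = 0.0601). LYZ had 40.0 and 41.7 CPM, then 52.9 and 43.3 CPM, and SPI1, CSF1R and CD163 had overlapping groups. CD14 had at most 4 reads in any of the 4 libraries, MPEG1 at most 1, and S100A8 at most 3. The part of such cells in the rises above was not tested, and in bulk RNA a larger share of 1 cell type and more RNA per cell cannot be told apart.

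Among 14 tested markers of other blood, epithelial and stromal cells, KRT19 was called lower, from 203 and 226 CPM to 116 and 137 CPM (log2 change -0.77, SE 0.15, adjusted p = 0.0241), and none was higher. KRT8, another keratin of simple epithelia, had means of 2097 CPM at 48 h and 1941 CPM at 72 h (log2 change -0.11, SE 0.12, adjusted p = 0.829). MS4A1 and ELANE, of B cells and neutrophil precursors, had 0 reads in all 4 libraries. In 4 of the 14 both 72 h libraries lay above both 48 h libraries, and in 4 both lay below. Over all genes tested the shares were 19.2% and 19.5%. Log2 changes in the 14 ranged from -0.77 to 0.93. PECAM1 went from 33 and 30.6 CPM to 48.6 and 39 CPM, and CDH5 from 0.762 and 0.725 CPM to 1.56 and 1.28 CPM. MPO had 21.6 and 22.9 CPM, then 23.6 and 22.6 CPM. Of all genes tested, 1.14% were called higher and 0.325% lower. IFI16, a nuclear DNA sensor, was the 1 call among 27 interferon-stimulated genes, with 16.7 and 17.6 CPM, then 44.1 and 38.2 CPM (log2 change 1.26, SE 0.14, adjusted p = 0.00083), and it was called with each of the 4 libraries left out. STAT2 changed by 0.06 (SE 0.07).

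None of 13 mitochondrially encoded genes was called by edgeR with the low-count filter or by DESeq2. None had an unadjusted p under 0.05, while edgeR without that filter called 7 higher (446 of all 26879 genes then tested). Their median log2 change was 0.46, made up of 0.98 within replicate 1 and 0.05 within replicate 2. MT-CO1 had 3846 and 5971 CPM at 48 h and a mean of 6726 CPM at 72 h (SD 756), so that 48 h replicate 1 stood low. MT-ATP8 had the largest change, 0.58 with an SE of 0.46.

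**Figure D5:**
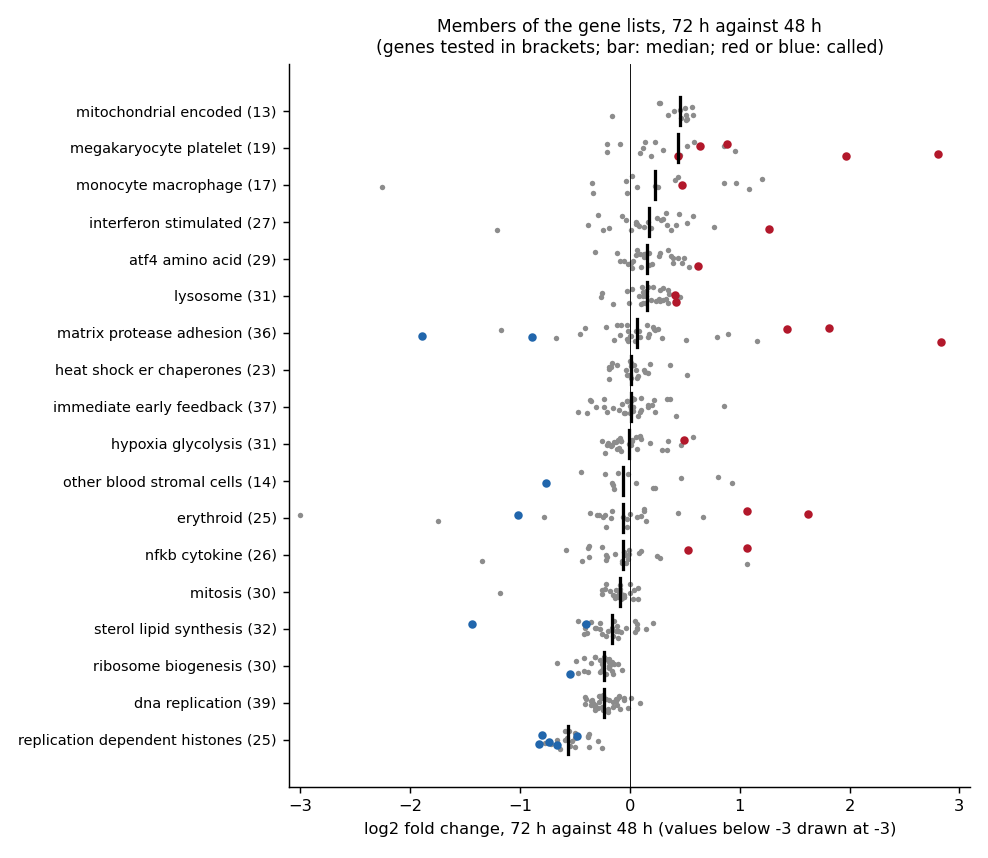
Log2 fold change at 72 h against 48 h of every tested member of the 18 gene lists, with the number tested in brackets, a black bar at each list's median, red points for genes called higher and blue for genes called lower. Megakaryocyte and platelet genes have their median at 0.44 and 5 red points, and histone genes have their median at -0.56, 5 blue points and no member above 0.

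Most of the steepest rises outside the lists began from low levels. KRT75, a hair follicle keratin, had 2.96 and 2.4 CPM at 48 h and 13.4 and 14 CPM at 72 h (5.11-fold, adjusted p = 0.00195). ABCC2, an export pump for organic anions, had 2.71 and 2.68 CPM, then 12 and 11.1 CPM (4.29-fold, adjusted p = 0.000553), and B3GNT7, a glycosyltransferase, had 1.1 and 1.17 CPM, then 4.85 and 3.84 CPM (3.82-fold, adjusted p = 0.00155). Those of ABCC2 and B3GNT7 were called with each of the 4 libraries left out. FGR, a SRC family kinase of myeloid cells, rose 3.95-fold, ECRG4 rose 4.13-fold and LOXHD1 rose 4.17-fold, all to 5.38 CPM or less. LRRC37A4P, a pseudogene of a multicopy family with uncertain reads, had 3.43 and 6.62 CPM at 72 h.

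Genes already abundant at 48 h also rose. DAB2, an adaptor of endocytosis, had 343 and 367 CPM at 48 h and 575 and 547 CPM at 72 h (log2 change 0.66, SE 0.09, adjusted p = 0.00292). AKAP12, a scaffold for protein kinases A and C, had 534 and 568 CPM, then 803 and 762 CPM (log2 change 0.51, adjusted p = 0.0400). Of genes named after their values were seen, JAG1, a Notch ligand, went from 23.0 and 23.5 CPM to 71.0 and 61.9 CPM (log2 change 1.52, SE 0.15, adjusted p = 0.000279). FLT1, a VEGF receptor, went from 30.9 and 33.2 CPM to 68.6 and 62.4 CPM (log2 change 1.03, adjusted p = 0.00135), and both were called with each of the 4 libraries left out.

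RLN3, GAL, IL9R and ADORA2B are among the genes named for the size of their fall. RLN3, which encodes the peptide relaxin-3, had 203 and 237 CPM at 48 h and 103 and 133 CPM at 72 h (log2 change -0.90, SE 0.15, adjusted p = 0.00875). GAL, which encodes galanin, had 40.7 and 44.5 CPM, then 15.5 and 21.3 CPM (log2 change -1.21, SE 0.18, adjusted p = 0.00458). IL9R, the interleukin 9 receptor, had 20.3 and 19.2 CPM, then 10.3 and 10.8 CPM (adjusted p = 0.00869), and ADORA2B, an adenosine receptor, had 2.93 and 2.65 CPM, then 1.45 and 1.47 CPM (adjusted p = 0.0188). In all 4 genes both 72 h libraries lay below both 48 h libraries, which the naming rule required.

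LRRC15, a membrane protein, fell by 1.29 (adjusted p = 0.00887) and MUC19, a gel-forming mucin, by 1.11 (adjusted p = 0.0265), both on the log2 scale. RELN, the large matrix protein reelin, had 202 and 196 CPM, then 145 and 129.7 CPM (log2 change -0.54, SE 0.09, adjusted p = 0.0105). PAX5, a B cell factor with under 2 CPM and named after its values were seen, had 43 and 47 reads at 48 h and 0 at 72 h in both libraries, at least 14.8-fold lower by means against a floor of 3 reads per library.

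The genes called were also compared with their change in the first day, in libraries that the step does not use. Of the 201 genes called higher at 72 h, 123 (61.2%) had been called higher at 24 h against 0 h, as were 31.7% of all genes tested, and 33 (16.4%) had been called lower. Among the 57 called lower, 29 (50.9%) had been called lower at 24 h against 0 h, as were 26.6% of all genes tested, and 20 (35.1%) had been called higher. ITGA6, IL24, IL1B and CD9 belong to the first kind, and ITGA2B, ALAS2, HBZ, TXNIP and ALDH1L2 are genes that rose after an early fall. COL5A3, IL11, PLAU and KRT19 fell after an early rise, and MYB and the 5 called histone genes fell after an early fall. At 0 h, 93 of the 201 genes and 10 of the 57 were below 1 CPM, which leaves little room for an early fall. The shares of called genes are therefore not matched to those of all genes tested, and their difference was not tested.

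Whether the step differed from the one before it was tested as a contrast of the 2 steps, which share the 48 h libraries. It differed for 302 genes (1.72%), for 53 with a higher and for 249 with a lower log2 change in the later step. Of the 201 genes that rose and the 57 that fell, 28 and 21 were among them. Of the 25 histone genes 18 were: H2AC11 changed by 1.33 from 24 h to 48 h and by -0.74 from 48 h to 72 h (adjusted p of the difference 0.000684), and H3C14 by 2.04 and then by -0.89 (adjusted p 0.000361). RRM2 changed by 1.19 and then by -0.31 (adjusted p 0.000231), and RLN3 by 3.45 and then by -0.90 (adjusted p 1.19e-06). IL1B rose in both steps, by 2.43 and then by 1.07 (adjusted p 0.00311), while COL6A2 changed by 0.06 and then by 1.81 (adjusted p 0.00253). For ITGA6 (2.55, then 2.83), ALAS2 (1.1, then 1.06) and COL5A3 (-1.96, then -2.03) the difference between the 2 steps was not called, with adjusted p from 0.834 to 0.978.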

How the data were processed

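RNA sequencing tables of 16 libraries were used. Each deposited table lists, per the file headers, an estimated count of reads and TPM (abundance per length) for 177456 transcripts. Per the submitters' processing notes, tools included Trim Galore 0.4.3 and Salmon, with the builds hg19 and hg38 named without a role. The Salmon version and any strand setting are not given in the sources used here. Transcripts were matched by identifier to GENCODE 29 (GRCh38): 167027 (94.1%) matched, in 35052 genes, and the rest, 3.09% to 3.54% of reads in the 4 libraries, were left out. Coordinates come from that match. Estimated counts were summed per gene and rounded. Deposited TPM served for 1 alternative, counts rebuilt from TPM and mean length.

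All 16 libraries entered 1 edgeR 4.0.16 fit (R 4.3.3; TMM, filterByExpr, quasi-likelihood F-test, Benjamini-Hochberg adjusted p under 0.05, prior count 0.125, 8 residual degrees of freedom, biological coefficient of variation 0.123), with DESeq2 1.42.0 as an alternative. Standard errors are the log2 fold change before shrinkage over the square root of F. On simulated counts for 72 h against 48 h in 17353 genes, 84 of 100 genes changed 2-fold and 98 of 100 changed 4-fold were recovered, with 6 false calls. The changed genes had at least 2 CPM at 48 h. Simulated libraries varied independently around the fitted levels, without the replicate differences linked to GC content. The simulation therefore checks the fit and does not give the recovery or the share of false calls in these data.

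Genes are named by a rule: called genes whose mean over the 4 libraries reaches 2 CPM, with groups apart and no time point with 0 reads in one library and 20 or more in the other (the 12 largest rises, the 12 largest falls and the 4 most abundant each way). From each list the rule adds up to 4 called members, the member with the largest change at a mean of at least 2 CPM, and the most abundant one. This gave 77 genes, 49 of them called. Some genes of the rule and of the lists are counted but not reported here by name. The comparison, the lists and the rule were chosen with earlier results of these data known. Lists got no set test. Promoter windows are RefSeq sequences (GRCh38.p14), found by symbol for 12159 of 17548 tested genes. Replicates differed by more than counting noise (mean chi-square per gene 14.1 at 48 h and 33.5 at 72 h), so none is an identical deposit; this does not show separate cultures.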

Additional observations from a re-analysis of the deposited data

Results flagged for a closer look

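The contrast of the last 2 steps was below an adjusted p of 0.05 (edgeR) for 302 genes. Among the genes named by the rule, the log2 change from 48 h to 72 h minus that from 24 h to 48 h was -2.94 for H3C14, -2.57 for HIST1H3B, -2.22 for H2AC4, -2.08 for H2BC11 and -2.07 for H2AC11, all histone genes. It was -1.51 for RRM2 and -0.81 for LIG1, both of DNA replication. It was -4.35 for RLN3, -2.03 for LRRC15, -1.53 for RELN and -0.65 for ACAT2, which fell in the later step. IL1B, with -1.36, rose in both steps, and COL6A2, with 1.75, rose mainly in the later one. The value for IL19, -7.02, depends on the prior count, since IL19 had no read at 24 h. Each medium change precedes 1 of the 2 steps, both steps share the 48 h libraries, and no group is large enough for a test of single libraries that stand apart.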

How the results depend on the processing

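The 258 calls at 72 h against 48 h became 659 (446 higher, 213 lower) without the low-count filter, 87 (79 higher, 8 lower) with only the 48 h and 72 h libraries, 820 with a GC correction, 1259 with the replicate block and that correction, 83 with length-scaled TPM, 30 against a 1.5-fold change and 77 at an adjusted p under 0.01. With 1 library left out they ranged from 37 to 349, the highest without either 0 h library, an alternative added after seeing the data, as were those without a 24 h library. The 302 genes whose steps differ became 641, 911, 1301, 182, 99 and 127 under the filter, GC, block with GC, length-scaled TPM, 1.5-fold and 0.01 settings, and 57 to 333 with 1 library left out. The share of step genes called in the same direction at 24 h (58.9%) ranged from 52.6% to 64.9%. The replicate block alone gave 326 and 352 calls; with 2 replicate numbers their pairing could not be established (r = 0.47 between deviations at 48 h and 72 h), and it changed no call of the 49 named called genes. Of those 49, 49 were called with the GC correction, 48 with DESeq2, 27 with length-scaled TPM, and 14, 13, 22 and 30 without 48 h replicates 1 and 2 and 72 h replicates 1 and 2. With only the 48 h and 72 h libraries 20 of the 49 were called, and against a 1.5-fold change 12 were. Signs turned only for uncalled genes. With a library left out, log2 changes ranged from -0.05 to 0.16 for SQLE (negative without 72 h replicate 1), -0.26 to 0.13 for EGR1 (positive, 0.10 and 0.13, without 48 h replicate 2 and 72 h replicate 1), -0.31 to 0.13 for TOP2A and -0.49 to 0.09 for HBG2 (positive without 72 h replicate 2), and -2.87 to 0.01 for CCL3 (positive without 48 h replicate 2). With the GC correction, alone or with the block, EGR1 was 0.03 and KRT8 0.00, and KRT8 was 0.02 with length-scaled TPM. The cause was not tested. Genes under 1 CPM rest on few reads.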
